A study of Mus musculus with 132 samples.

Results

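The 10 genes described here are transcription factors of the cardiac and lateral plate mesoderm: Gata4, Gata6, Hand1, Hand2, Foxf1, Tbx20, Tbx5, Isl1, Nkx2-5 and Mef2c. They were taken by name from a count table of 25146 genes, and all 10 were found. The study followed mouse embryonic stem cells (mESCs) through mesoderm to blood and asked how CTCF sites next to the promoters of the blood regulator Runx1 act in that course. Gene expression was measured by poly(A)-minus RNA-seq, which enriches for transcripts still being made, in 23 libraries of the male E14-TG2a line (strain 129/Ola). Wild-type cells were collected undifferentiated at day 0 (2 libraries), as Flk1+ mesoderm at day 4 of embryoid body culture (3 libraries) and as CD41+ hematopoietic progenitor cells (HPCs) at day 7 (4 libraries). Clones with a CRISPR/Cas9 deletion of the CTCF site near the distal (P1-CTCF-KO) or the proximal (P2-CTCF-KO) Runx1 promoter were collected as mesoderm (3 libraries each) and as HPCs (3 and 5 libraries).

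Mesoderm and HPC libraries came from 3 clones per genotype, named B9.3, C6.1 and C8.1 (wild-type), E7.1, E7.2 and E9.1 (P1-CTCF-KO) and D10.1, D2.1 and E9.1 (P2-CTCF-KO), and each clone is 1 line. Clones B9.3, D10.1 and D2.1 have a second HPC library, marked -2 in the labels, which is not a further clone. The paper counts each HPC library as an independent experiment. The main tests counted the second library as a further replicate, so their HPC p-values treat libraries of the same clone as independent. The 2 undifferentiated libraries are labelled technical replicates of 1 culture, so p-values against them measure a spread that may be technical. Ribosomal RNA depletion is named in the Methods for undifferentiated cells and not for mesoderm or HPCs, so stage and library preparation cannot be told apart in comparisons with undifferentiated cells. In these bulk libraries, fewer cells of a type and less RNA per cell cannot be told apart.

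As background, lateral plate mesoderm gives rise to the heart, the vessels, the blood and the mesenchyme around the gut, and Flk1+ cells include precursors of several of these. Gata4, Gata6, Hand1, Hand2, Tbx5, Tbx20, Isl1, Nkx2-5 and Mef2c are needed for heart formation, where they act together on shared target genes, and Foxf1 marks splanchnic mesoderm and is needed for its derivatives and for vessel formation. Some have roles outside the heart: Mef2c acts in endothelial cells, platelets and lymphocytes, and Gata6 in endoderm.

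Libraries held 7805102 to 24406998 counts, of which 68.1 to 91% fell on 187 entries of ribosomal RNA or of several loci, leaving 878966 to 7748566 counts for the other genes. Levels are CPM (counts scaled to the library size as adjusted by TMM) on 1 TMM scale over all libraries. A group's spread is given as the SD over libraries. The adjusted size was 183176000 and 101943000 for the undifferentiated libraries, with totals of 24283287 and 20532578 counts. For wild-type mesoderm it was 8233770 to 17235500. Levels and bounds against undifferentiated cells rest on this adjustment. The labelled cell types were checked on their surface markers. Kdr, which encodes Flk1, averaged 0.1004 CPM in undifferentiated cells and 27.2 CPM ± 10.5 (SD, n = 3) in wild-type mesoderm, and Itga2b, which encodes CD41, averaged 0.910 CPM in that mesoderm and 28.4 CPM ± 10.8 (SD, n = 4) in wild-type HPCs. Runx1 averaged 10.7 CPM ± 5.98 (SD, n = 3) in mesoderm of wild-type clones. It averaged 8.09 ± 4.05 in that of P1-CTCF-KO clones and 5.44 ± 3.02 in that of P2-CTCF-KO clones (n = 3 each). The P2-CTCF-KO difference from wild-type was -0.96 ± 0.58 (log2, SE) and did not pass in the edgeR test described below (adjusted p = 0.447). The deletions remove CTCF sites and no gene, so gene counts do not check them.

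Most of the factors were low in undifferentiated cells, present in mesoderm and low again in HPCs, while Mef2c was highest in HPCs. Between wild-type mesoderm and undifferentiated cells, 6 members passed the filter on low counts and all 6 were higher (Foxf1, Hand1, Gata6, Gata4, Mef2c and Tbx20), beside 10.7% of all genes tested that were higher and 13.7% that were lower. Calls needed a Benjamini-Hochberg adjusted p below 0.05 in the edgeR quasi-likelihood test and more than a log2 change of 1 in either direction. The SE given with a log2 change was calculated back from the F statistic of this test. Between wild-type HPCs and mesoderm, 4 of 6 tested members were lower and 0 were higher (12.5% and 10.8% of all genes). In P1-CTCF-KO cells 6 of 7 tested members were lower in HPCs and 1 was higher (16.1% and 16.6% of all genes), and in P2-CTCF-KO cells 5 of 7 were lower and 1 was higher (11.7% and 16.5%). The tested members had a median log2 fold change of 6.52 from undifferentiated cells to mesoderm (6.185 with Foxf1 at its bound), beside -0.18 over all genes tested. From mesoderm to HPCs the median was -3.81 in wild-type cells, -3.83 (-3.77 with Foxf1 at its bound) in the P1 and -3.57 in the P2 knockout, beside -0.01, -0.07 and 0.09 over all genes. The filter admits a member mostly through the stage in which it is high, so these members had to differ and the counts are a description.

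**Figure D1:**
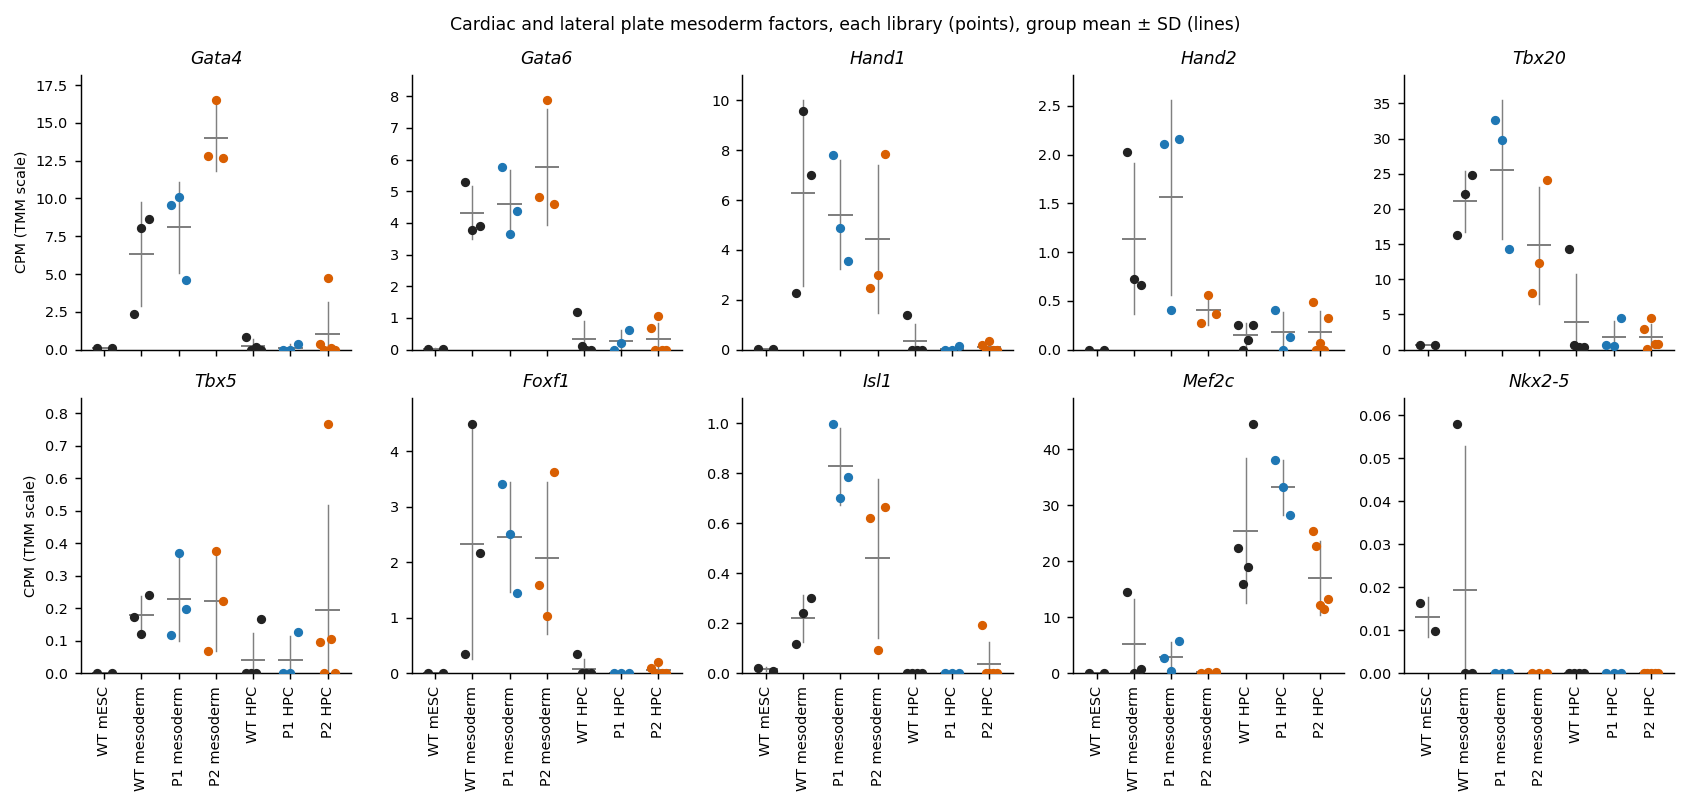
Level of each member in each library, in CPM on the scale shared by the 23 libraries (vertical axes, each gene on its own scale), by genotype and stage. Points are libraries and bars the group mean ± SD. Gata4, Gata6, Hand1, Foxf1 and Tbx20 are highest in mesoderm, whereas Mef2c reaches 11.5 to 44.6 CPM in HPCs of every genotype.

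The GATA factors bind GATA motifs and drive cardiac, endodermal and mesodermal genes. Gata4 (mm9, chr14:63817750-63864108, minus strand) had 25 and 13 counts in the undifferentiated libraries, or 0.136 and 0.128 CPM. In wild-type mesoderm it stood at 2.38 CPM in clone B9.3, 8.02 in C6.1 and 8.64 in C8.1, so every mesoderm library lay above both undifferentiated ones. It fell to 0.859 CPM in the first HPC library of B9.3, 0.197 in C6.1 and 0 in the other 2 wild-type HPC libraries. The log2 fold change was 5.53 ± 0.82 (SE, adjusted p = 0.000767) into mesoderm and -4.45 ± 0.73 (adjusted p = 0.001) into HPCs. Gata4 also fell into HPCs in P1-CTCF-KO (-5.79 ± 1.499, adjusted p = 0.00521) and P2-CTCF-KO cells (-3.57 ± 0.86, adjusted p = 0.00314). The P2-CTCF-KO value rested on a first library of clone D2.1 with 68 counts (4.75 CPM), where the other 4 libraries had 0 to 4 counts, and it was -6.70 without that library.

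The region of open chromatin nearest upstream of the Gata4 start is shown because it was in the ATAC-seq peak list of mesoderm and absent from that of HPCs, the same order as the Gata4 RNA. ATAC-seq marks DNA that a transposase can cut. The centre of the peak is at -780 bp from the start, in no annotated exon, at chr14:63864797-63864980 (mm9, plus strand), and its GC content is 58.2%. Both strands of each peak shown were searched for 3 motifs. The GATA motif was read as AGATAA, with the related letters AGATAG, and likewise beginning with T, as TGATAA and also as the form TGATAG. The RUNX motif was read as TGTGGT and also as the form TGCGGT, and the E-box as the letters CANNTG. This peak held 0 matches to any of them, whereas 32%, 16.4% and 58.6% of windows of this length centred on mesoderm peaks held GATA, RUNX and E-box matches. A GATA match is given in capitals in the sequences printed here, as is a RUNX match, and this one has none.
Gata4 upstream peak: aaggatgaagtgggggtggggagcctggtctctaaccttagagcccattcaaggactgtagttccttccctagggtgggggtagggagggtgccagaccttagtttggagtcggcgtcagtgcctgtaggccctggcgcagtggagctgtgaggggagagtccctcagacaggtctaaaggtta

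Gata6 (mm9, chr18:11052507-11085633, plus strand) varied less between clones. It stood at 5.28, 3.76 and 3.90 CPM in wild-type mesoderm, 3.66 to 5.75 CPM in P1-CTCF-KO and 4.59 to 7.88 CPM in P2-CTCF-KO mesoderm, and no group was clear of the others. The highest HPC value in any genotype was 1.20 CPM, in the first library of wild-type clone B9.3, below every mesoderm library. Gata6 rose by 7.33 ± 0.98 (log2, SE, adjusted p = 0.000441) into wild-type mesoderm and fell into HPCs in wild-type (-3.60 ± 0.73, adjusted p = 0.0034), P1-CTCF-KO (-3.83 ± 1.03, adjusted p = 0.00663) and also P2-CTCF-KO cells (-3.87 ± 0.76, adjusted p = 0.000682). Gata6os, which overlaps the Gata6 start on the opposite strand, had at most 10 counts in any library, and as the strand setting of the counting is not given, reads of the pair cannot be told apart.

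Hand1 and Hand2 are basic helix-loop-helix factors of lateral plate mesoderm, the heart tube and its outer layers. Hand1 (mm9, chr11:57642214-57645649, minus strand) had 3 and 1 counts in the undifferentiated libraries. Wild-type mesoderm held 2.26 CPM in B9.3, 9.59 in C6.1 and 7.02 in C8.1. In wild-type HPCs there were 16 counts (1.37 CPM) in the first library of B9.3 and 0 counts in each of the other 3. Hand1 rose by 8.50 ± 1.27 (log2, SE, adjusted p = 0.000817) into wild-type mesoderm and fell by 4.03 ± 0.87 (adjusted p = 0.00505) into HPCs, and it also fell in P1-CTCF-KO (-6.60 ± 1.41, adjusted p = 0.0013) and P2-CTCF-KO cells (-5.04 ± 0.92, adjusted p = 0.000345). In the 8 HPC libraries of both knockouts it had at most 5 counts. The wild-type fall was not called by DESeq2 (-4.23, adjusted p = 0.0625).

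Hand2 (mm9, chr8:59799779-59803314, plus strand) had few counts in every library. There were 0 counts in both undifferentiated libraries and 35, 6 and 11 counts (2.03, 0.729 and 0.660 CPM) in wild-type mesoderm, which is at least 49.8-fold higher against a floor of 3 counts per library. P1-CTCF-KO mesoderm held 2.11, 0.412 and 2.16 CPM and P2-CTCF-KO mesoderm 0.275, 0.563 and 0.370 CPM. HPC libraries had at most 5 counts. The fall into HPCs was called in P1-CTCF-KO cells (-3.34 ± 1.04, adjusted p = 0.0159) and not in P2-CTCF-KO cells (-1.19 ± 0.91, adjusted p = 0.314). The P1-CTCF-KO call was lost without mesoderm E7.1 or E9.1 (adjusted p = 0.0523 and 0.052) or HPC E7.2 or E9.1 (0.0856 and 0.0584).

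Foxf1 (mm9, chr8:123608285-123612054, plus strand) encodes a forkhead factor of splanchnic mesoderm and is named Foxf1a in the GENCODE vM1 annotation. It had 0 counts in both undifferentiated libraries, and 6, 37 and 36 counts (0.348, 4.49 and 2.16 CPM) in wild-type mesoderm, at least 102-fold higher against the floor of 3 counts. In HPCs it had 4 counts in the first wild-type B9.3 library, 0 in all other wild-type and all P1-CTCF-KO libraries, and at most 3 in P2-CTCF-KO libraries. The fall into HPCs was called in wild-type (-4.47 ± 1.09, adjusted p = 0.0113), P1-CTCF-KO (-7.90 ± 1.77, adjusted p = 0.00234) and P2-CTCF-KO cells (-4.68 ± 0.94, adjusted p = 0.00101). P1-CTCF-KO HPCs were at least 5.56-fold below their mesoderm.

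The mesoderm peak nearest upstream of the Foxf1 start is shown for the same reason as that of Gata4. Its centre is at -626 bp from the start, in no annotated exon, at chr8:123607540-123607779 (mm9, plus strand), with a GC content of 73.3%. It held 1 RUNX match, in capitals, and 0 GATA or E-box matches. Among windows of this length at mesoderm peaks, 20.4% held a RUNX, 37.6% a GATA and 67.9% an E-box match.
Foxf1 upstream peak: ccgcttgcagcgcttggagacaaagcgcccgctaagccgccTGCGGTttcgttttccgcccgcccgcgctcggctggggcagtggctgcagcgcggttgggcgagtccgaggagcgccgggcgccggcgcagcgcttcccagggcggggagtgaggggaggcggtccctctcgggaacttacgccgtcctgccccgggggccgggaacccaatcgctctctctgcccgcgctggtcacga

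T-box factors act on chamber and outflow genes in the heart. Tbx20 (mm9, chr9:24525255-24578747, minus strand) had the highest counts of the members in wild-type mesoderm. It stood at 0.655 and 0.638 CPM in undifferentiated cells and at 16.2, 22.1 and 24.9 CPM in wild-type mesoderm, a rise of 5.01 ± 1.28 (log2, SE, adjusted p = 0.014). Without either undifferentiated library this rise was not called (adjusted p = 0.125 and 0.13). P1-CTCF-KO mesoderm held 32.6, 29.8 and 14.3 CPM and P2-CTCF-KO mesoderm 8.06, 12.4 and 24.1 CPM, so the 3 genotypes overlapped.

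In wild-type HPCs, Tbx20 was at 14.3 CPM in the first library of B9.3 and at 0.640, 0.395 and 0.416 CPM in B9.3-2, C6.1 and C8.1. The fall was not called over all 4 (-2.38 ± 0.90, adjusted p = 0.0693) and was called without the first B9.3 library (-5.46, adjusted p = 1.26e-06). With the libraries of the same clone and stage summed, it was also called (-2.63, adjusted p = 0.0483). Tbx20 fell in P1-CTCF-KO (-3.77 ± 1.18, adjusted p = 0.0163) and P2-CTCF-KO cells (-2.99 ± 0.93, adjusted p = 0.0167). The P1-CTCF-KO call was lost without HPC E7.1 or E7.2 (adjusted p = 0.07 and 0.0762), and the P2-CTCF-KO call without mesoderm E9.1 (0.0857) or with the clone as a block (0.0578).

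Tbx5, Isl1 and Nkx2-5, which act in the first and second heart fields, were close to the floor. Tbx5 (mm9, chr5:120284671-120335227, plus strand) had 0 counts in undifferentiated cells and 1 to 9 counts in the 9 mesoderm libraries, too few for a fold change. Its highest level was 0.768 CPM (11 counts) in the first HPC library of P2-CTCF-KO clone D2.1. Isl1 (mm9, chr13:117088477-117099896, minus strand) had 2, 2 and 5 counts in wild-type, 17, 17 and 12 in P1-CTCF-KO and 9, 1 and 9 in P2-CTCF-KO mesoderm, and 0 in every HPC library but 1, which had 2. Nkx2-5 (mm9, chr17:26975609-26978510, minus strand) had 3 and 1 counts in undifferentiated cells, 1 count in a single mesoderm library and 0 in all others. For Nkx2-5 a difference between groups was not detectable at this depth.

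Mef2c, a MADS-box factor of heart, vessel and blood cells, ran against the other members. Mef2c (mm9, chr13:83643032-83806684, plus strand) had 0.0873 and 0.118 CPM in undifferentiated cells. In wild-type mesoderm it was at 14.5 CPM in B9.3, 0.121 in C6.1 and 0.840 in C8.1, a range far wider than that of any other member there. In wild-type HPCs it was at 22.4 and 16.0 CPM in the libraries of B9.3, 18.9 in C6.1 and 44.6 in C8.1. P1-CTCF-KO HPCs held 38.1, 33.2 and 28.3 CPM, and P2-CTCF-KO HPCs 25.4, 22.8, 12.2, 11.5 and 13.3 CPM. Each HPC library was above all mesoderm libraries of its own genotype.

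Mef2c rose into HPCs in P1-CTCF-KO (3.49 ± 0.94, log2, SE, adjusted p = 0.00687) and P2-CTCF-KO cells (6.27 ± 1.19, adjusted p = 0.000492). In wild-type cells the change was 2.24 ± 0.89 (adjusted p = 0.0838) and was not called. Mesoderm B9.3 decided this value, which was 5.48 (adjusted p = 5.82e-05) without it, and with the clone as a block it was 2.91 (adjusted p = 0.0459). The rise into wild-type mesoderm, 5.70 ± 1.35 (adjusted p = 0.00963), was 2.49 (adjusted p = 0.0381) without B9.3, and it was not called without either undifferentiated library (adjusted p = 0.109 and 0.0903).

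A pair of Mef2c peaks is shown, the widest peak of at most 300 bp outside UTRs in both ATAC-seq lists and the widest such peak in the HPC list alone, as Mef2c had the most peaks of the members. The shared peak lies 14467 bp downstream of the gene's first start at chr13:83657387-83657612 (mm9, plus strand; GC content 58.4%) and held 1 GATA match, and 0 RUNX or E-box matches. Windows of its length at mesoderm peaks held a GATA match in 36.3%, RUNX in 19.5% and an E-box in 65.8% of cases. The peak of HPCs alone lies 146575 bp downstream at chr13:83789523-83789691 (GC content 46.7%) and held 1 GATA match, here read on the minus strand, 1 E-box and 0 RUNX matches. In windows of its length at HPC peaks these shares were 23.8%, 54.8% and 21%. Capitals mark the GATA matches.
Mef2c shared peak: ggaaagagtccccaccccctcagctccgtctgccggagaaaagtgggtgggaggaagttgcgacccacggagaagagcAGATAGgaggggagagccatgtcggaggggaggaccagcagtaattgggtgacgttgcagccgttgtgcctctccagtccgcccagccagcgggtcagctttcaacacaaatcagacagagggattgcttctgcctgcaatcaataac
Mef2c HPC peak: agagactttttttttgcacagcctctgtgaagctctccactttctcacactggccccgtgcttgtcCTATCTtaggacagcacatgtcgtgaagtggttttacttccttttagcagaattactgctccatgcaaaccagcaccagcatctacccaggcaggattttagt

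Compared per kilobase of gene span, exons and introns included, the members stood in another order. In wild-type mesoderm Hand1 was at 1.83 CPM per kb, Foxf1 at 0.619, Tbx20 at 0.394, Hand2 at 0.322, Gata4 at 0.137, Gata6 at 0.130, Mef2c at 0.0315, Isl1 at 0.0192 and Tbx5 at 0.00353. Hand1, a short gene, thus led on this scale and Tbx20 on the count scale. The place of Mef2c rested on B9.3, and without that library it was at 0.00294 CPM per kb, below Isl1 (0.0238) and Tbx5 (0.00358). Gata4 and Gata6 lay within each other's spread. In wild-type HPCs Mef2c was at 0.156 and Tbx20 at 0.0734 CPM per kb, the latter at 0.00904 without the first B9.3 library.

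Clones with repeated HPC libraries gave different values in each. In wild-type B9.3 the first library had 166 counts of Tbx20, 16 of Hand1, 14 of Gata6, 10 of Gata4 and 4 of Foxf1, and the second had 5, 0, 1, 0 and 0. In P2-CTCF-KO D2.1, Gata4 had 68 counts in the first and 1 in the second, Tbx20 64 and 8, Gata6 15 and 0, and Tbx5 11 and 1. In D10.1, Tbx20 had 30 and 1 counts, Gata6 7 and 0, Hand2 5 and 0 and Gata4 4 and 0. All these members were higher in the first library of the pair. Mef2c differed less in CPM, with 22.4 and 16.0 in B9.3, 12.2 and 11.5 in D2.1 and 25.4 and 22.8 in D10.1.

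Markers of smooth muscle and stroma (10 genes) moved with the same libraries. Their summed level was 129 CPM in the first and 2.69 in the second B9.3 library, 26.7 and 3.38 CPM in D2.1 and 32.4 and 1.54 CPM in D10.1, against a range of 2.42 to 129 over wild-type HPCs. P1-CTCF-KO E9.1, which has 1 HPC library, had 31.7 CPM of these markers and 35 counts of Tbx20, where E7.1 and E7.2 had 3 and 4. Endothelial markers (12 genes) were also higher in the first libraries. They stood at 101 and 59.7 CPM in B9.3, 149.5 and 29.4 in D2.1 and 134 and 61.1 in D10.1. Endoderm markers (12 genes) were too, at 4.81 and 0.512 CPM in B9.3, 8.09 and 0.845 in D2.1 and 2.33 and 0.192 in D10.1. Lateral plate and splanchnic mesoderm genes (14 genes) stood at 3.95 and 0.384 CPM in B9.3, 6.21 and 0.634 in D2.1 and 1.55 and 0.961 in D10.1. In D2.1, primitive streak markers (10 genes) were at 3.35 and 0.106 CPM and pluripotency markers (8 genes) at 2.23 and 0.317 CPM. Both lists were at most 0.344 CPM in the B9.3 and D10.1 libraries. Blood progenitor markers were higher in the first library of B9.3 and D10.1 and lower in that of D2.1. The part of any of these cell types in the members' HPC levels was not tested. The first libraries of the 3 clones were then left out, an alternative chosen after the data were seen. Of 7 tested members, 6 were called in wild-type, 7 in P1-CTCF-KO and 6 in P2-CTCF-KO cells. Over all genes, 3176 of 12946, 3369 of 9505 and 2957 of 9505 were called. Mef2c was called higher in both knockouts and was not called in wild-type cells. The wild-type changes were then -6.47 for Gata4 and -6.89 for Gata6 (log2), and Hand1 and Foxf1 were at 0 in all 3 remaining libraries.

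**Figure D2:**
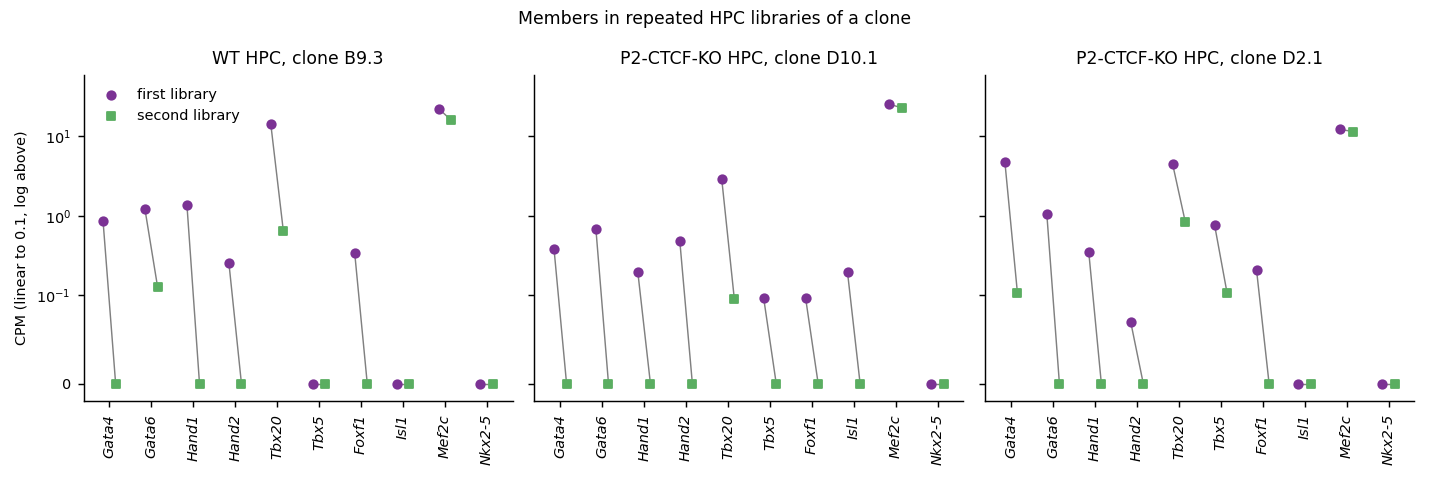
Levels of the members in the first and second HPC libraries of clones B9.3, D10.1 and D2.1, in CPM on an axis that is linear to 0.1 and logarithmic above, with lines joining the libraries of a clone. Tbx20 in B9.3 goes from 14.3 to 0.640 CPM and Gata4 in D2.1 from 4.75 to 0.106 CPM, while Mef2c lies between 11.5 and 25.4 CPM in all 6.

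No tested member was called between genotypes by edgeR or DESeq2 among genes that passed the low-count filter. In mesoderm 8 members were tested, and 0 were called between P1-CTCF-KO and wild-type (0% of all genes), between P2-CTCF-KO and wild-type (0.0342% of all genes) and between the knockouts (0%) by edgeR. DESeq2 also called 0 members, though over all genes it called 1.89% in P2-CTCF-KO against wild-type and 1.12% between the knockouts. At an unadjusted p under 0.05 there were 1, 2 and 2 members, beside 168, 1408 and 987 of 8778 genes. In HPCs only Tbx20 and Mef2c passed the filter, and 0 were called in either knockout against wild-type (0% and 0% of all genes), with 0 members below an unadjusted p of 0.05, beside 260 and 145 of 7422 genes. Mef2c differed from wild-type by 0.40 ± 0.37 (log2, SE, adjusted p = 0.91) in P1-CTCF-KO and by -0.57 ± 0.33 (adjusted p = 1) in P2-CTCF-KO HPCs, and Tbx20 by -1.07 ± 1.35 (adjusted p = 0.91) and -1.06 ± 1.11 (adjusted p = 1). The direction for Tbx20 rested on the first wild-type B9.3 library, and without it the values were 1.98 (adjusted p = 0.887) and 1.97 (adjusted p = 1).

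Mef2c, Isl1, Hand2 and Gata4 had the lowest unadjusted p-values in mesoderm, and none was called. Mef2c was at 0.138, 0.188 and 0.296 CPM in P2-CTCF-KO mesoderm, at 2.76, 0.412 and 5.77 in P1-CTCF-KO and at 14.5, 0.121 and 0.840 in wild-type, so P2-CTCF-KO overlapped wild-type only through clone C6.1. Its difference from wild-type was -4.63 ± 1.56 (log2, SE, adjusted p = 0.2), and -1.39 (adjusted p = 0.758) without B9.3. Gata4 was at 12.8, 16.5 and 12.7 CPM in P2-CTCF-KO mesoderm, above all wild-type libraries, with a difference of 1.18 ± 0.42 (adjusted p = 0.212), or 0.76 without B9.3. Isl1 was at 0.998, 0.700 and 0.787 CPM in P1-CTCF-KO mesoderm and at most 0.300 in wild-type (1.90 ± 0.59, unadjusted p = 0.00807, adjusted p = 1). The Hand2 difference was -1.55 ± 0.73 (adjusted p = 0.331) in P2-CTCF-KO against wild-type, -0.78 (adjusted p = 0.782) without B9.3, and -1.91 ± 0.71 (adjusted p = 0.361) against P1-CTCF-KO. Where the edgeR fit kept genes with low counts, Gata4 (1.17, adjusted p = 0.0282) and Mef2c (-4.66, adjusted p = 0.00369) were called against wild-type, beside 2.49% of all genes. Mef2c (-3.76, adjusted p = 0.0403) was then also called against P1-CTCF-KO, beside 1.54% of all genes.

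The step from mesoderm to HPCs was also compared between genotypes. Of 7 tested members 0 were called for P1-CTCF-KO against wild-type (0% of all genes) and 0 for P2-CTCF-KO against wild-type (0.0218%). DESeq2 and the edgeR fit without the filter also called 0 members for P2-CTCF-KO (0.403% and 0.0161% of all genes). Mef2c had the lowest unadjusted p, with a step larger by 4.04 ± 1.42 (log2, SE, unadjusted p = 0.0103, adjusted p = 0.444) in P2-CTCF-KO than in wild-type cells, and by 1.26 ± 1.18 (adjusted p = 0.999) in P1-CTCF-KO cells. Both values rested on wild-type mesoderm B9.3, and without it they were 0.80 and -1.98 (adjusted p = 1 for each).

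**Figure D3:**
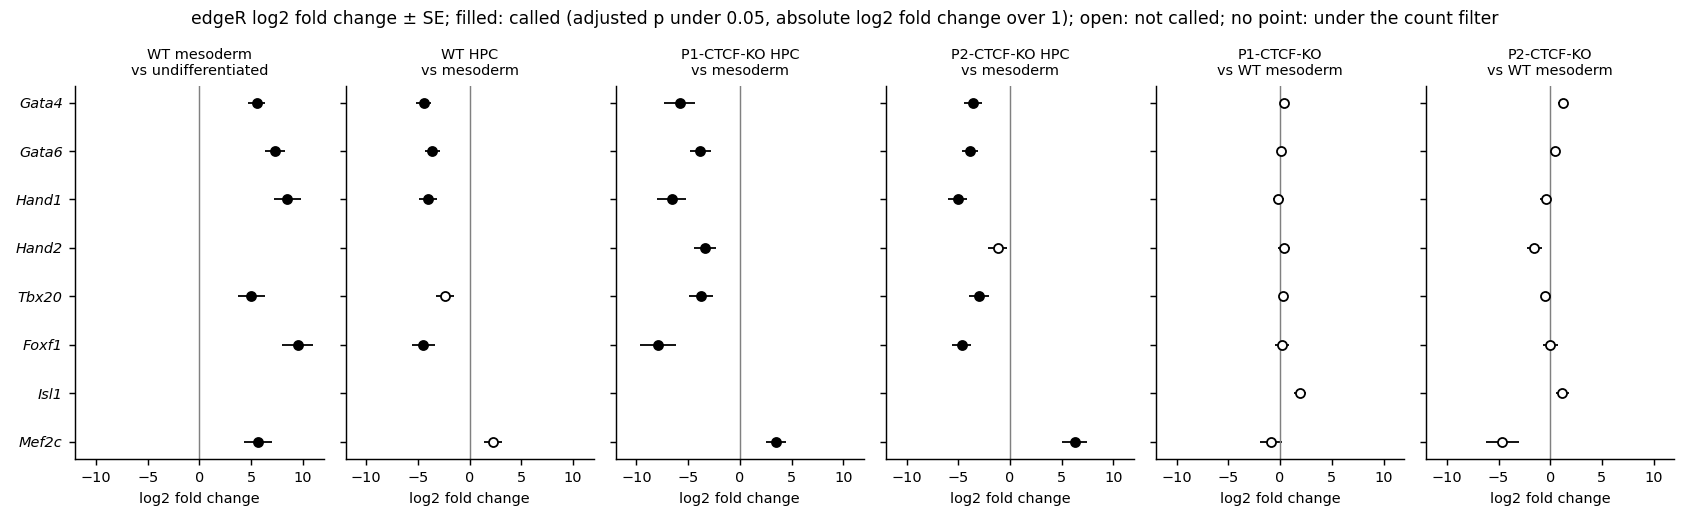
Log2 fold change of each tested member with its SE (calculated back from the F statistic), from undifferentiated cells to mesoderm, from mesoderm to HPCs in each genotype, and in mesoderm of each knockout against wild-type. Filled points were called. All filled points lie in the stage comparisons, and Mef2c is the only member above 0 into HPCs.

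Endothelial markers differed between the same mesoderm libraries. The summed level of 12 endothelial genes was 174 CPM in wild-type B9.3, 35.6 in C6.1 and 46.5 in C8.1, 82.6, 39.4 and 128 CPM in P1-CTCF-KO E7.1, E7.2 and E9.1, and 27.3, 28.8 and 34.1 CPM in P2-CTCF-KO D10.1, D2.1 and E9.1. These 12 include Kdr, the gene of the Flk1 sort marker. In the same order, Kdr alone was at 37.8, 26.8 and 16.9 CPM in wild-type and 30.3, 25.6 and 39.1 in P1-CTCF-KO libraries. In P2-CTCF-KO libraries it was at 24.2, 26.1 and 29.8 CPM, most of each sum. Mef2c was highest in the 3 libraries with the highest sums, and so was Hand2. Gata4, Hand1 and Foxf1 were lowest in B9.3, the library with the highest sum. Emcn, Sox18, Erg and Cldn5 were at 0 in all 3 P2-CTCF-KO libraries. Primitive streak markers (10 genes) summed to 3.31 to 21.6 CPM in wild-type, 6.03 to 20.4 in P1-CTCF-KO and 46.6 to 82.3 CPM in P2-CTCF-KO mesoderm. Against wild-type, edgeR called 0 genes of both lists in P2-CTCF-KO mesoderm, while DESeq2 called 6 of 10 tested endothelial genes lower (Cdh5, Erg, Esam, Flt1, Pecam1 and Tek) and 3 of 7 tested primitive streak genes higher (Eomes, Mixl1 and T). Over all genes, edgeR called 0.0342% and DESeq2 1.89% there. The part of either list in the members' mesoderm levels was not tested.

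**Figure D4:**
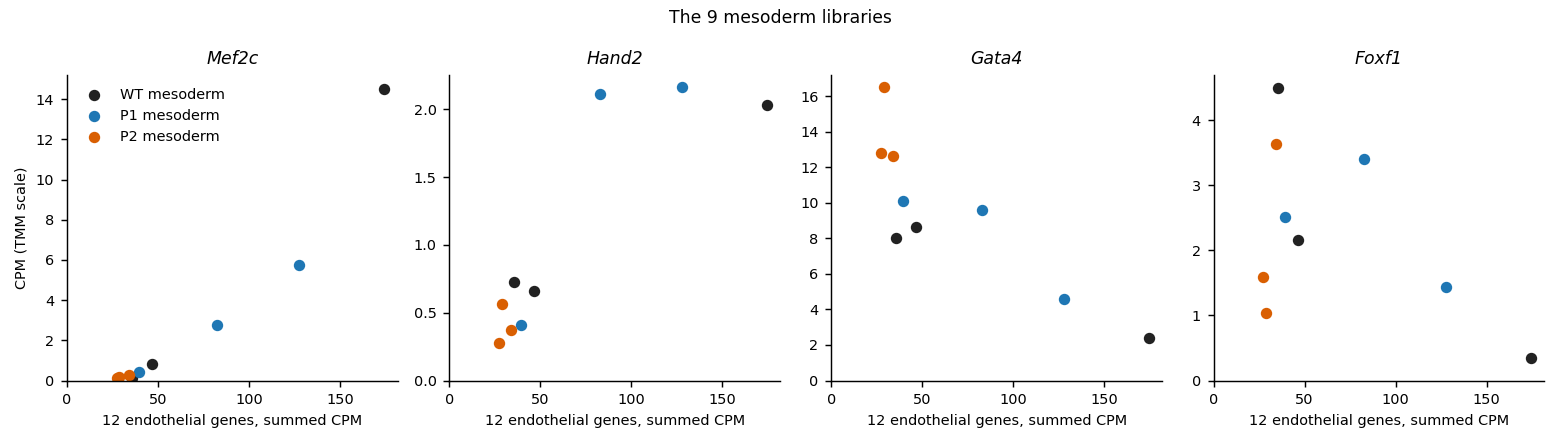
Levels of members in the 9 mesoderm libraries (CPM, vertical axes) against the summed level of 12 endothelial genes (CPM, horizontal axes), coloured by genotype. The 12 genes include Kdr, the gene of the sort marker. Wild-type B9.3 stands at the right with a sum of 174 CPM, with the highest Mef2c (14.5 CPM) and the lowest Gata4 (2.38 CPM).

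Other genes of these programs were counted from lists of pathway and cell type genes. Over all genes tested, 10.7% rose and 13.7% fell into wild-type mesoderm, and 10.8% rose and 12.5% fell into wild-type HPCs. The low-count filter acts on these lists as on the members, so the counts are a description. Of 18 other cardiogenic transcription factors 9 were tested, and 6 rose into wild-type mesoderm (Tbx2, Tbx3, Mef2a, Meis2, Mef2d and Zfpm2, with Tbx3 at 4.90) while 0 fell. Into wild-type HPCs, 3 of them fell (Tbx3 -9.11, Tbx2 -4.48 and Meis2 -2.57, log2) and 0 rose. In each knockout 3 of 8 tested genes of this list fell into HPCs and 1 rose. Of 14 lateral plate and splanchnic mesoderm genes 9 were tested, and 6 rose into mesoderm, among them Pdgfra (6.98), a receptor of mesenchymal precursors. Into wild-type HPCs 7 fell, including Pdgfra (-5.51) and the ligands Bmp7 (-5.67), Bmp5 (-4.67), Bmp4 (-3.16) and Bmp2 (-2.25), and 0 rose. In the P1 knockout 5 and in the P2 knockout 4 of 7 tested fell and 0 rose, with Pdgfra at -7.13 and -7.59. Of all genes, 16.1% and 11.7% fell and 16.6% and 16.5% rose in these knockouts.

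Genes of the contractile apparatus were counted in the same way, beside the same shares of all genes. Of 18 cardiomyocyte genes 9 were tested, and into wild-type mesoderm 4 rose (Cacna1c, Tnnt2, Slc8a1 and Tnni1) and 1, Ttn, fell (-4.55). Into wild-type HPCs Tnni1 (3.03), Ttn (2.13) and Tnnt2 (2.01) rose and Actn2 fell (-4.45). Of the 18 listed genes, 6 were at 0 in every wild-type mesoderm library (Myh6, Myh7, Myl3, Tnnc1, Pln and Nppa). Tnnc1, Pln and Nppa were also at 0 in both undifferentiated libraries. Between genotypes, among genes past the low-count filter, edgeR called 0 genes of these 3 lists, and DESeq2 called 1, Pdgfra, which was higher in P2-CTCF-KO mesoderm than in either other genotype.

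Over the 21 mesoderm and HPC libraries, Hand1 and Foxf1 ran most alike among the members (Pearson r of log2(CPM + 1) = 0.97), and Mef2c ran opposite to Gata4 (r = -0.92). These libraries fall into 2 stages, so the values describe the stage difference above all. Among all genes, those nearest to Gata4 were Il17rd (0.992), Epb41l3 (0.987) and Ajuba (0.981), to Gata6 Dsp (0.981), Tsku (0.976) and Vash2 (0.971), and to Tbx20 Daam2 (0.984), Frmd6 (0.961) and Nrp1 (0.96). Nearest to Hand1 were Crb2 (0.982), Foxf1 and Ephb3 (both 0.97), to Foxf1 Hand1, Dusp9 (0.954) and Fgf3 (0.952), to Hand2 Itgb8 (0.918), AW551984 (0.91) and Tbx4 (0.906), to Isl1 F630040K05Rik (0.917), Sp6 (0.889) and Mgat3 (0.887), and to Mef2c Vav3 (0.973), Prkg1 (0.972) and Gas7 (0.97).

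Open chromatin at the members was compared between wild-type mesoderm and HPCs as lists of peak positions, 1 per stage, with no replicates and no test. The labels name the line of these cells E14-TG2a and the Methods a line with a Runx1 enhancer transgene. A mesoderm peak lay within 1 kb of a start site in 7 of 10 members (Hand1, Hand2, Gata4, Gata6, Tbx20, Isl1 and Foxf1), beside 60.7% of 22350 genes. An HPC peak lay there in 4 members (Hand2, Tbx20, Isl1 and Mef2c), beside 41.3% of genes. The mesoderm list held 76766 peaks and the HPC list 29037. Within 1 kb, Hand1, Gata4, Gata6 and Foxf1 thus had a start-site peak in mesoderm alone. Mef2c had such a peak in HPCs alone, 25 bp upstream of an internal start. The share of all genes with a peak in mesoderm alone was not counted. Within 500 bp, Gata4 and Foxf1 had no mesoderm peak, and within 2.5 kb Mef2c also had a mesoderm peak. The Mef2c HPC peak was 69 bp wide, below the median of its list. The Methods merged more libraries for mesoderm than for HPCs, and the part of depth was not tested.

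Within each gene and 10 kb on either side, Gata4 had 6 mesoderm and 0 HPC peaks, Gata6 4 and 0, Foxf1 2 and 0, Hand1 1 and 0, Tbx5 2 and 0 and Nkx2-5 2 and 0. Hand2 and Tbx20 had peaks at both stages, 4 and 4 for Hand2, 4 and 3 for Tbx20, and Isl1 5 and 2. Mef2c had 16 mesoderm and 9 HPC peaks, of which 5 were shared. Hand2 and Isl1 thus kept a start-site peak in the stage in which they had few or 0 counts. CTCF peaks of 416B cells, a hematopoietic progenitor line, lay within 1 kb of a start in 0 members, beside 17.4% of genes, and within the wider windows numbered 4 at Hand1, 3 at Mef2c, 2 at Gata4 and 1 each at Tbx20 and Foxf1.

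**Figure D5:**
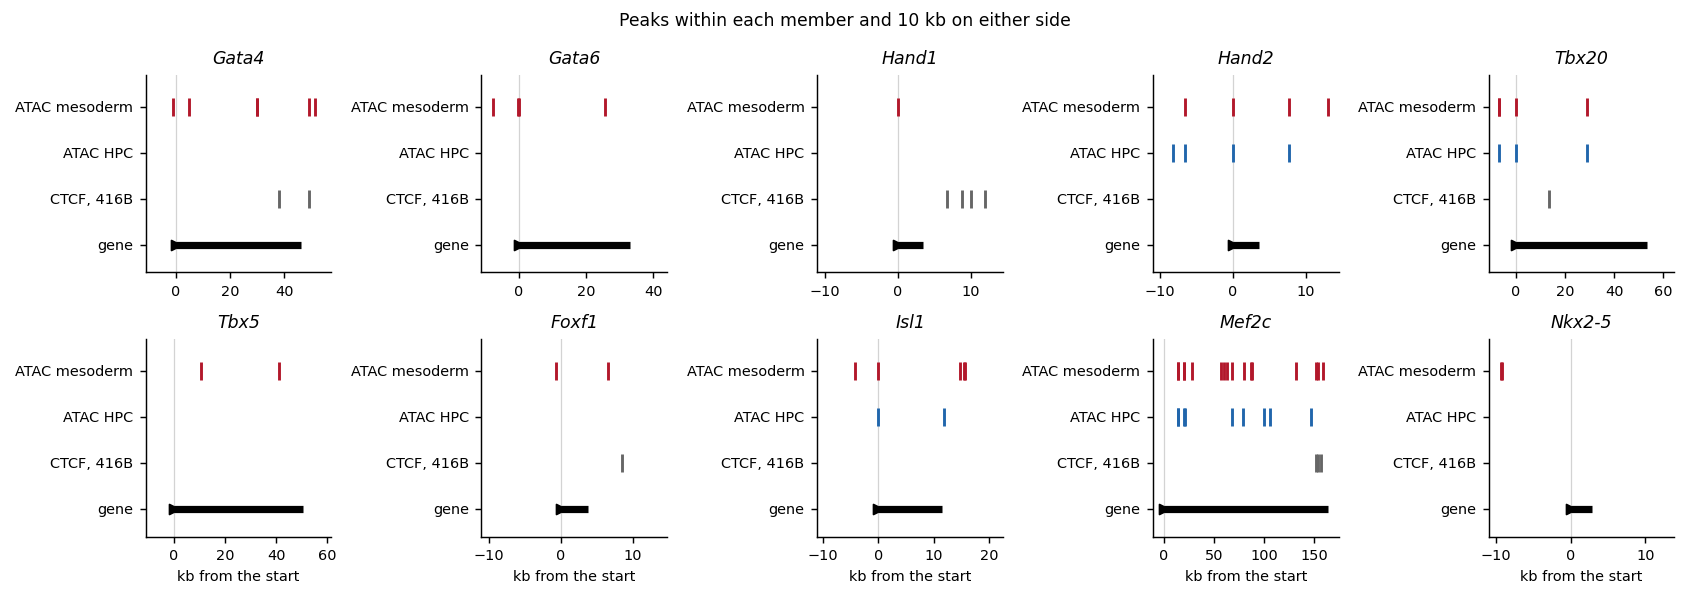
Peaks around each member by distance from the annotated start (kb, horizontal axis), with mesoderm, HPC and 416B CTCF peaks in separate lanes. Gata4, Gata6, Hand1 and Foxf1 have mesoderm peaks and no HPC peak, and Mef2c has 16 and 9.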

How the data were processed

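The 23 RNA-seq libraries were analysed from their counts. The deposited counts were made by the authors, who mapped reads with STAR to mm9, removed duplicates with picard and counted reads over exons and introns with featureCounts, without normalization. The annotation and strand setting of the counting are not given in the sources used here. The peak positions were deposited as start and end alone, called by the authors with MACS2, for ATAC-seq after libraries were merged and for CTCF ChIP-seq of 416B cells against input. Each column was tied to its sample by the labels (0 columns left out). Hand2, Foxf1 and Nkx2-5 lie within spans of entries with several loci and had counts of their own.

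Tests were run with edgeR 4.0.16 under R 4.3.3 (TMM, filterByExpr with a minimum count of 10, quasi-likelihood test, Benjamini-Hochberg adjustment over all genes of a fit), in fits of 9 wild-type, 9 mesoderm, 12 HPC or 21 mesoderm and HPC libraries. Calls needed an adjusted p below 0.05 and a log2 change beyond 1 in either direction. The SE of an edgeR change is its absolute log2 value over the square root of the F statistic. It restates the test and is not a separate estimate of spread, also where a group had no counts. The members and gene lists were chosen with earlier results of these data known. Named genes are every member, up to 6 called genes of a list and comparison by adjusted p, and the 3 genes nearest to a member by Pearson correlation. Surface markers and neighbouring noncoding genes were named after their values were seen. Bounds use a floor of 3 counts per library and cover counting error alone.

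Alternatives were DESeq2 1.42.0, RLE scaling, no low-count filter, no fold limit, abundant entries removed, summed repeat libraries, the clone as a replicate block, all libraries in 1 fit and each library left out. Every pair of libraries within a group differed by more than sampling noise (chi-square per gene from 6.22 to 135), so none was merged. Clones were shared between stages, and their deviations correlated weakly (r from -0.0628 to 0.168 over 12543 genes). The code of the test was run on simulated counts with large changes planted in well-counted genes. That run does not show how the test performs at low counts or for small changes. Peaks and motifs were read with Python 3.11.15 and pandas 2.3.3 from mm9 with GENCODE vM1, and figures were drawn with matplotlib 3.10.9.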

Additional observations from a re-analysis of the deposited data

Results flagged for a closer look

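In 13 groups of 4 or 5 HPC libraries with detected counts, 6 held a library far above the others by Dixon's criterion. Chance flags about 1 in 20 groups of continuous values, but that rate does not apply here, since counts in 1 library beside 0 in the rest meet the criterion by construction. All 6 come from 2 libraries, the first of clones with a second HPC library, so they are not independent. Wild-type B9.3 stood apart for Hand1 (1.37 CPM, 16 counts, the next highest at 0), Gata6 (1.20 CPM against 0.128), Tbx20 (14.3 CPM against 0.640) and Foxf1 (0.344 CPM, 4 counts, the next highest at 0). P2-CTCF-KO D2.1 stood apart for Gata4 (4.75 CPM against 0.388) and Tbx5 (0.768 CPM against 0.106). Smooth muscle and stroma, endothelial and endoderm markers were also higher in these libraries than in the second libraries of their clones. The part of these markers was not tested.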

How the results depend on the processing

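No call changed direction under any alternative. From mesoderm to HPCs in wild-type cells, 4 of 6 tested members were called. Without the low-count filter 8 of 10 were called, and with all 23 libraries in 1 fit 7 of 8. Over all genes, 3007 of 12899, 3490 of 19102 and 2902 of 12543 were called. Hand2 and Isl1 were tested without the filter and in the 23-library fit, and not in the 9-library fit. Mef2c, and Tbx20 without the filter, were also gained. The cause was not tested. Without the filter, 2 members were called in P2-CTCF-KO mesoderm against wild-type and 1 against P1-CTCF-KO, in place of 0. Over all genes, these comparisons had 3 and 0 calls, 431 and 267 without the filter and 166 and 98 by DESeq2. Wider HPC ATAC-seq peaks alone left 2 of 4 members with a start-site peak. With 1 library left out, calls ranged from 5 to 7 into wild-type mesoderm, from 3 to 6 into wild-type HPCs, from 6 to 8 in P1-CTCF-KO and from 6 to 7 in P2-CTCF-KO cells, and from 0 to 0 in every comparison between genotypes. With the clone as a replicate block, paired across stages, 7 members were tested. Of these, 6 were called in wild-type, 7 in P1-CTCF-KO and 5 in P2-CTCF-KO cells, and 0 in the differences between steps. Over all 9170 genes tested, 2351, 2786 and 2453 were called in the 3 genotypes. DESeq2 called 3, 6 and 5 members over both directions, beside 2993 of 12899, 3014 of 9170 and 2650 of 9170 genes. It gave Gata4 no adjusted p in either knockout. Depth limits Tbx5, Isl1 and Nkx2-5, and the HPC libraries, with 878966 to 1584401 counts outside the abundant entries, limit every fall.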

Other observations

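Noncoding genes beside the members were read as well, chosen after their values were seen. Fendrr, next to Foxf1, averaged 1.87 CPM ± 1.27 (SD, n = 3) in wild-type, 2.02 in P1-CTCF-KO and 1.29 in P2-CTCF-KO mesoderm, and at most 0.0775 CPM in any HPC group. It fell into HPCs in wild-type (-5.15 ± 1.03, log2, SE, adjusted p = 0.00326 by edgeR), P1-CTCF-KO (-7.64 ± 1.82, adjusted p = 0.00352) and P2-CTCF-KO cells (-3.74 ± 0.96, adjusted p = 0.00578). Hand2os1, next to Hand2, averaged 0.632, 0.818 and 0.291 CPM in mesoderm of the 3 genotypes and was lower in wild-type HPCs (-3.20 ± 0.90, adjusted p = 0.0229).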
